A study of Oncorhynchus mykiss with 24 samples.

Results

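Eggs of rainbow trout (O. mykiss) fertilized with sperm of brook trout (S. fontinalis) were compared at 1 day post fertilization (dpf) and at 1 hour post fertilization (hpf), the interval in which the egg divides without growing. RNA had been sequenced by TOMO-seq, in which an egg or embryo is cut along its animal-vegetal axis and each piece is sequenced by itself. Section A was the animal piece, where the dividing cells lie, and section B the vegetal piece, which holds the yolk. At 1 dpf the embryos were early blastulae of about 32 to 64 cells, while the 1 hpf eggs carry a 1-cell name in one label and early cleavage in another. The comparison used 12 of the 20 libraries in the count table, 3 at 1 dpf and 3 at 1 hpf for each section, and the 22773 genes with an O. mykiss identifier of 32765 genes in all. No treatment or mutation separated the groups, and the cross was the same in all of them. The labels call the replicates biological, and whether each was 1 egg or several is not given in the sources used here. A replicate is called an egg below. Unless stated otherwise, p-values rest on a spread among replicates that was estimated over all 20 libraries, those of other stages included.

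In the early fish embryo the genome is largely silent, and the first cell divisions run on RNA and protein that the mother stored in the egg. Levels of maternal RNAs can then differ between stages through decay or movement within the egg, and later through transcription from the embryo's own genome at the maternal-to-zygotic transition. Rounds of cleavage use stored cyclins, replication proteins and histones, and vegetal RNAs of the germ plasm and of the dorsal axis are kept at one pole. The comparison of 1 dpf with 1 hpf therefore asks which maternal RNAs have already altered in level, and in which piece of the egg, before the genome is switched on.

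Levels are given as CPM, counts scaled to a common library total. At 1 dpf the section A libraries held 6765611 to 7730696 counts and the section B libraries 5605030 to 8294788. At 1 hpf they held 8574091 to 9404008 and 8614708 to 9628963. Counts on S. fontinalis genes made up 0.927% to 1.085% of these 12 libraries. Egg markers fixed for the check of the material were present in every library: 9 of 10 had a gene in the table, and their summed level was 1256 to 1429 CPM at 1 dpf and 1099 to 1220 CPM at 1 hpf in section A, and 2813 to 3111 CPM and 2166 to 2921 CPM in section B. Of 8 defining markers of follicle cells, 7 of blood, 7 of sperm and 5 of liver, only fshr (LOC110503041) and ropn1l were matched by symbol to a gene in the table. Of the 22773 O. mykiss genes 9134 had no symbol, so other markers may be present without a match. fshr, a hormone receptor of follicle cells, measured 0 CPM in every section A library at 1 dpf against 0.878 to 3.74 CPM at 1 hpf, and ropn1l, a sperm flagellum gene, measured 6.56 to 8.19 CPM against 9.20 to 14.2 CPM. In section B fshr measured 0 to 0.570 CPM at 1 dpf and 0.368 to 3.06 CPM at 1 hpf, and ropn1l measured 10.97 to 14.3 CPM and 5.88 to 16.1 CPM. The part of such cells in the results was not tested. In a bulk section, fewer cells of a type and less RNA per cell cannot be told apart, and CPM gives each RNA's share of a library, so that a change in the total RNA of a section is not seen.

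The libraries of the eggs did not sort by stage. Across 1 dpf and 1 hpf, the libraries of 1 dpf replicates 1 and 2 were closest to those of 1 hpf replicate 1. Across 14664 genes their log2 CPM correlated at r = 0.973 and 0.978 in section A, and at r = 0.972 and 0.973 in section B. These values were near those between 1 dpf replicates 1 and 2 (0.974 in A, 0.968 in B). They were below those between 1 hpf replicates 2 and 3 (0.983 in A, 0.986 in B). The other pairs of 1 stage, in which the eggs fell into different clusters, correlated at only 0.913 to 0.938 in A and 0.885 to 0.916 in B. The libraries of each section were also clustered and cut into 3 clusters, with the 3 dpf libraries left out in section A. This put 1 hpf replicates 2 and 3 together and put 1 dpf replicate 3 apart with other stages. The eggs that were clustered in both sections fell into the same partition in each. What the labels give for these eggs does not name such groups, so they are described here only as samples, and their cause was not tested. Results are given over all 6 libraries of a section and also between 1 dpf replicates 1 and 2 and 1 hpf replicate 1, 3 eggs that cluster together. These 3 were picked on the same data and hold only 1 egg at 1 hpf, so their values are a description.

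**Figure D1:**
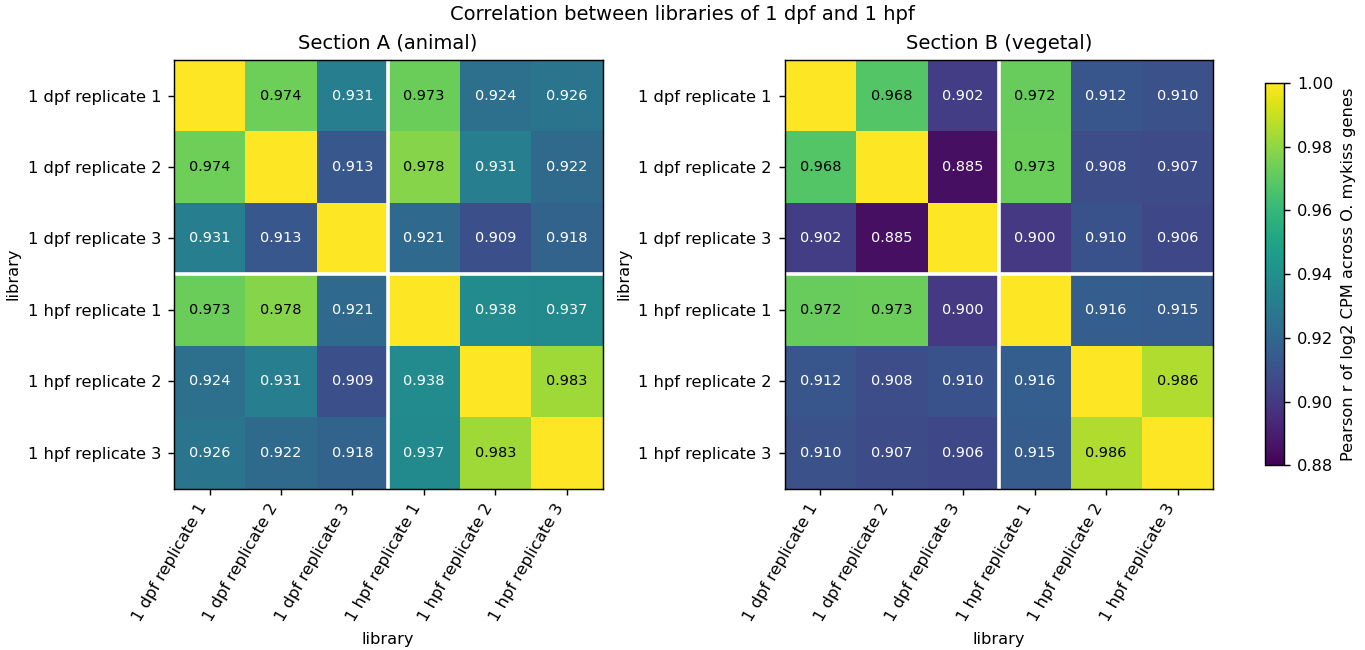
Pearson correlation of log2 CPM between the 6 libraries of section A (left) and of section B (right), across O. mykiss genes, with 1 dpf libraries above and left of 1 hpf libraries. Pairs of 1 dpf replicate 1 or 2 with 1 hpf replicate 1 reach 0.972 to 0.978, above the pairs of 1 dpf replicate 3 with the other 1 dpf libraries (0.8850 to 0.9315).

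The spread among eggs was set beside the difference between the stages. For the 11362 genes at or above the median level, the median absolute log2 difference between the stages was 0.177 in section A and 0.174 in section B, while the median SD between replicates was 0.202 and 0.259. The stage difference is between groups of 3 libraries and the SD is of single libraries, so these values are not on 1 scale. Between the clusters of eggs, the median absolute log2 difference was 0.264 (A) and 0.369 (B) at 1 dpf, and 0.187 and 0.295 at 1 hpf. In the 3 eggs that cluster together it was 0.149 and 0.158 between the stages. Between 1 dpf replicates 1 and 2, which share a cluster, it was 0.177 and 0.197. Between 1 hpf replicates 2 and 3 it was 0.145 and 0.114.

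No gene passed the test in either section. edgeR's quasi-likelihood test, adjusted over all 32502 genes tested of which 22724 were O. mykiss genes, called 0 O. mykiss genes in section A (0% of those tested) and 0 in section B (0%). At an unadjusted p under 0.05 it counted 1830 genes in section A (8.05%; 855 higher and 975 lower at 1 dpf) and 1946 in section B (8.56%; 851 higher and 1095 lower). With library totals as the only scaling the split was 967 higher and 856 lower in section A, where its direction turned, and 642 higher and 1394 lower in section B. DESeq2 called 96 genes in section A (0.422%), of which 29 were higher (0.128%) and 67 lower (0.295%). In section B it called 71 (0.312%), of which 21 were higher (0.0924%) and 50 lower (0.22%). Of these, 13 genes were called by DESeq2 in both sections, 13.5% of the calls in A and 18.3% of those in B, 2 higher and 11 lower in both. The p-values of DESeq2, like those of edgeR, treat the clustered eggs as independent. Some DESeq2 calls did not hold among the 3 eggs that cluster together. In section A anp32e (LOC110507631) had a DESeq2 log2 fold change of −3.35, and 0.003 among those eggs (edgeR). For prkar1aa (LOC110503022), described below, these were −0.90 and −0.82.

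The fit also gives an interval for the change in each gene's share of a library. These intervals take the eggs as independent, although the eggs fell into clusters. How well they hold under such clusters was not tested. Of the genes at or above the median level, 84.6% in section A and 84.8% in section B had a 95% interval of the fold change that lay within 2-fold in both directions, and the point estimate lay within 1.5-fold for 93.4% and 93.6%. Past 2-fold, section A had 75 such genes on the higher side and 37 on the lower, and section B had 68 and 55. Over all tested genes, low ones included, intervals within 2-fold were reached by 53.8% in A and 53.2% in B, and past 2-fold were 932 on the higher side and 736 on the lower in A, and 993 and 1006 in B. With both sections of an egg summed, so that the egg was the replicate, edgeR again called 0 of 22730 O. mykiss genes (0%; 2170 at an unadjusted p under 0.05, 9.55%), DESeq2 called 171 (0.752%; 50 higher, 0.22%, and 121 lower, 0.532%), and 90.8% of the genes at or above the median level had an interval within 2-fold. 1 egg decided much of this. Without 1 hpf replicate 1, edgeR called 19 of 22719 O. mykiss genes in section A, 9 higher and 10 lower. In section B it called 164 of 22721 (99 higher and 65 lower). Over both sections it called 896 of 22722 (539 higher and 357 lower). Leaving out any other library or egg gave 0 calls. Without that egg the 1 hpf group holds the pair of eggs that cluster together, and none of the 1 dpf eggs clusters with it.

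**Figure D2:**
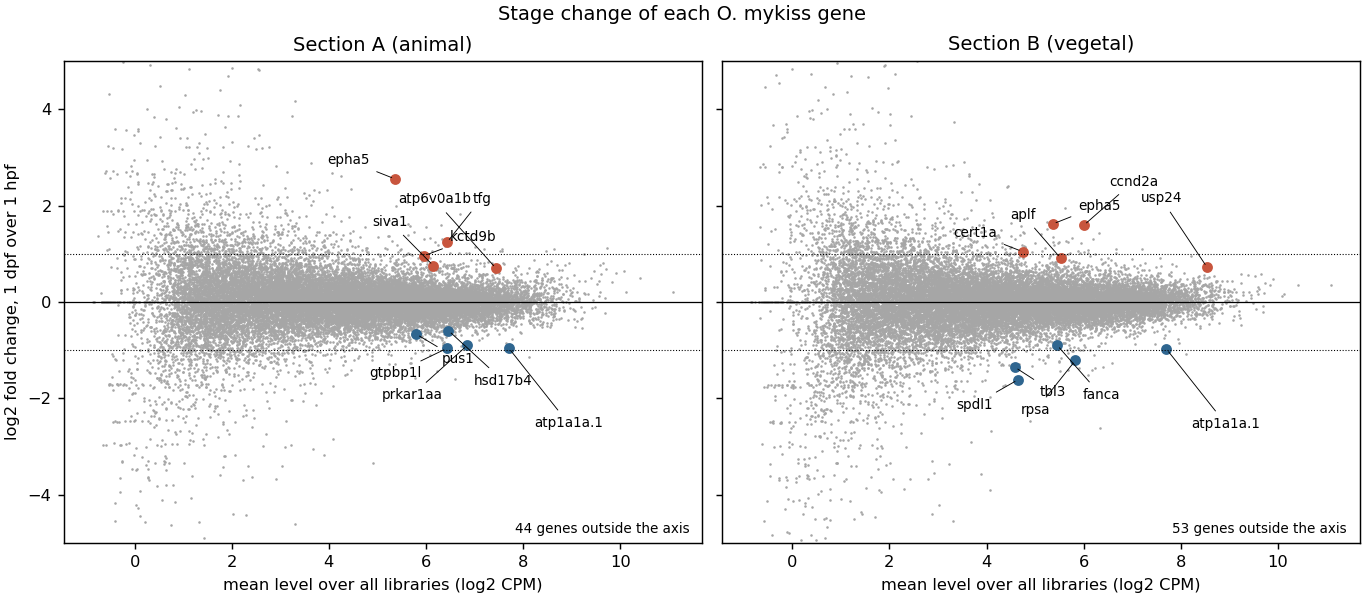
Log2 fold change of each O. mykiss gene (1 dpf over 1 hpf) against its mean level in log2 CPM, for section A (left) and section B (right); dotted lines mark 2-fold, and 44 and 53 genes lie outside the axis. The coloured points are the genes described in the text with the smallest p-values, 5 higher (red) and 5 lower (blue) per section, none of which passed the threshold.

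Genes are named below for small p-values unless another reason is given, and overlap between the stages was also looked at. All 3 libraries at 1 dpf lay above all 3 at 1 hpf for 7.71% of tested genes in section A and 5.03% in section B, and below for 8.04% and 6.14%.

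The lowest adjusted p-values belonged to a pair of genes in section B. spdl1 (LOC110513958) encodes Spindly, an adaptor that brings the motor dynein to kinetochores. It measured 5.99, 5.26 and 6.12 CPM in section B at 1 dpf, against 16.7, 18.6 and 17.9 CPM at 1 hpf. All 3 eggs at 1 dpf lay below all 3 at 1 hpf and the groups were tight, a log2 fold change of −1.61 ± 0.25 (SE, edgeR adjusted p = 0.0514). In section A the same gene measured 35.0, 28.5 and 30.6 CPM at 1 dpf and 29.0, 56.7 and 54.8 CPM at 1 hpf. There 1 hpf replicate 1 lay among the 1 dpf eggs, so the groups overlapped.

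rpsa (LOC110485798), a protein of the small ribosomal subunit, measured 21.5, 20.6 and 23.6 CPM in section B at 1 dpf, against 45.2, 55.2 and 51.7 CPM at 1 hpf (log2 fold change −1.21 ± 0.18, edgeR adjusted p = 0.0514). In section A it measured 54.0, 37.2 and 58.1 CPM at 1 dpf and 60, 53 and 58.9 CPM at 1 hpf. The stages did not overlap in section B and overlapped in section A. Among the 3 eggs that cluster together the log2 fold changes in section B were −1.58 for spdl1 and −1.11 for rpsa. Both genes passed the threshold in some other settings. With a stricter filter (10 counts in 3 libraries) both had an edgeR adjusted p = 0.0408, and with a robust prior both had an adjusted p = 0.0465. With library totals rpsa alone passed (adjusted p = 0.0307). DESeq2 called both in section B, with an adjusted p = 7.4e-08 for rpsa and 2.64e-05 for spdl1. Fits on fewer libraries went the other way. With only the 1 hpf and 1 dpf libraries, edgeR's lowest adjusted p of any O. mykiss gene in section B was 0.341. With only the section B libraries of those stages it was 0.879.

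Other genes of section B with small p-values were lower at 1 dpf in all 3 eggs than in any at 1 hpf. tbl3 (LOC110486894), a protein of the complex that processes ribosomal RNA, measured 6.38, 4.01 and 6.98 CPM at 1 dpf against 11.5, 17.2 and 15.5 CPM at 1 hpf (log2 fold change −1.35 ± 0.25, edgeR adjusted p = 0.187). fanca (LOC110494295), a core protein of the Fanconi anaemia repair complex, measured 19.5, 18.3 and 22.1 CPM against 30.5, 37.9 and 43.2 CPM (−0.90 ± 0.17, adjusted p = 0.187). DESeq2 called both in section B (adjusted p = 0.000385 for tbl3 and 0.000228 for fanca). For each of them the 1 hpf egg nearest to the 1 dpf eggs was replicate 1.

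The genes of smallest p on the higher side in section B did not pass in edgeR. For ccnd2a and aplf the 1 hpf eggs also lay apart from each other. ccnd2a, a D-type cyclin that drives entry into the cell cycle, measured 132, 127 and 132 CPM at 1 dpf against 78.3, 33.1 and 18.8 CPM at 1 hpf, a log2 fold change of 1.59 ± 0.41 (edgeR adjusted p = 0.449). Replicate 1 was again the 1 hpf egg nearest to 1 dpf, and among the 3 eggs that cluster together the log2 fold change was 0.73. In section A ccnd2a measured 36.9, 25.1 and 40.1 CPM at 1 dpf and 15.8, 13.4 and 5.46 CPM at 1 hpf. aplf, a DNA-break repair and histone-binding factor, measured 85.8, 73.1 and 93.4 CPM in section B at 1 dpf against 65.1, 34.2 and 35.8 CPM at 1 hpf. Its log2 fold change of 0.90 ± 0.23 came to 0.29 among the 3 eggs that cluster together. cert1a (LOC110509680), which carries ceramide between membranes, and usp24, a deubiquitinase, had log2 fold changes of 1.04 ± 0.27 and 0.72 ± 0.19 (both with an adjusted p = 0.449). DESeq2 called ccnd2a, aplf and cert1a in section B (adjusted p = 0.0447, 0.0413 and 0.0413).

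epha5 (LOC110536759), a receptor tyrosine kinase for ephrins, had the largest stage change of the genes picked by p-value. In section B it measured 82.0, 52.6 and 150 CPM at 1 dpf against 18.01, 38.6 and 36.0 CPM at 1 hpf, and in section A 7.60, 7.70 and 14.6 CPM against 1.32, 1.92 and 1.82 CPM. Each 1 dpf egg lay above each 1 hpf egg in both sections. The log2 fold changes were 2.55 ± 0.52 in section A and 1.62 ± 0.42 in section B (edgeR adjusted p = 0.595 and 0.449). Among the 3 eggs that cluster together the log2 fold changes were 2.53 and 1.89. DESeq2 called epha5 in section A (adjusted p = 0.000824) and not in section B.

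In section A the smallest p-value belonged to prkar1aa (LOC110503022), the regulatory subunit of protein kinase A that holds the kinase inactive. It measured 59.5, 77.4 and 58.5 CPM in section A at 1 dpf against 121, 113 and 130 CPM at 1 hpf, and 92.8, 79.3 and 94.4 CPM against 130, 141 and 138 CPM in section B. The stages did not overlap in either section. Its log2 fold changes were −0.90 ± 0.15 (A, edgeR adjusted p = 0.281) and −0.61 ± 0.15 (B, adjusted p = 0.449), and −0.82 and −0.59 among the 3 eggs that cluster together. DESeq2 called it in A (adjusted p = 1.81e-06), in B (0.0148) and over both sections (1.64e-16). tfg (LOC110520510), a scaffold of the exit sites of the endoplasmic reticulum, shared that lowest adjusted p of 0.281 in section A. It measured 15.3, 20.2 and 15.96 CPM in section A at 1 dpf against 7.24, 8.40 and 6.14 CPM at 1 hpf, and 239, 197 and 184 CPM against 142, 136 and 114 CPM in section B. Its log2 fold change was 1.24 ± 0.21 in A and 0.66 ± 0.19 in B, with 1.30 and 0.61 among the 3 eggs that cluster together. DESeq2 called tfg in A (adjusted p = 0.000271).

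**Figure D3:**
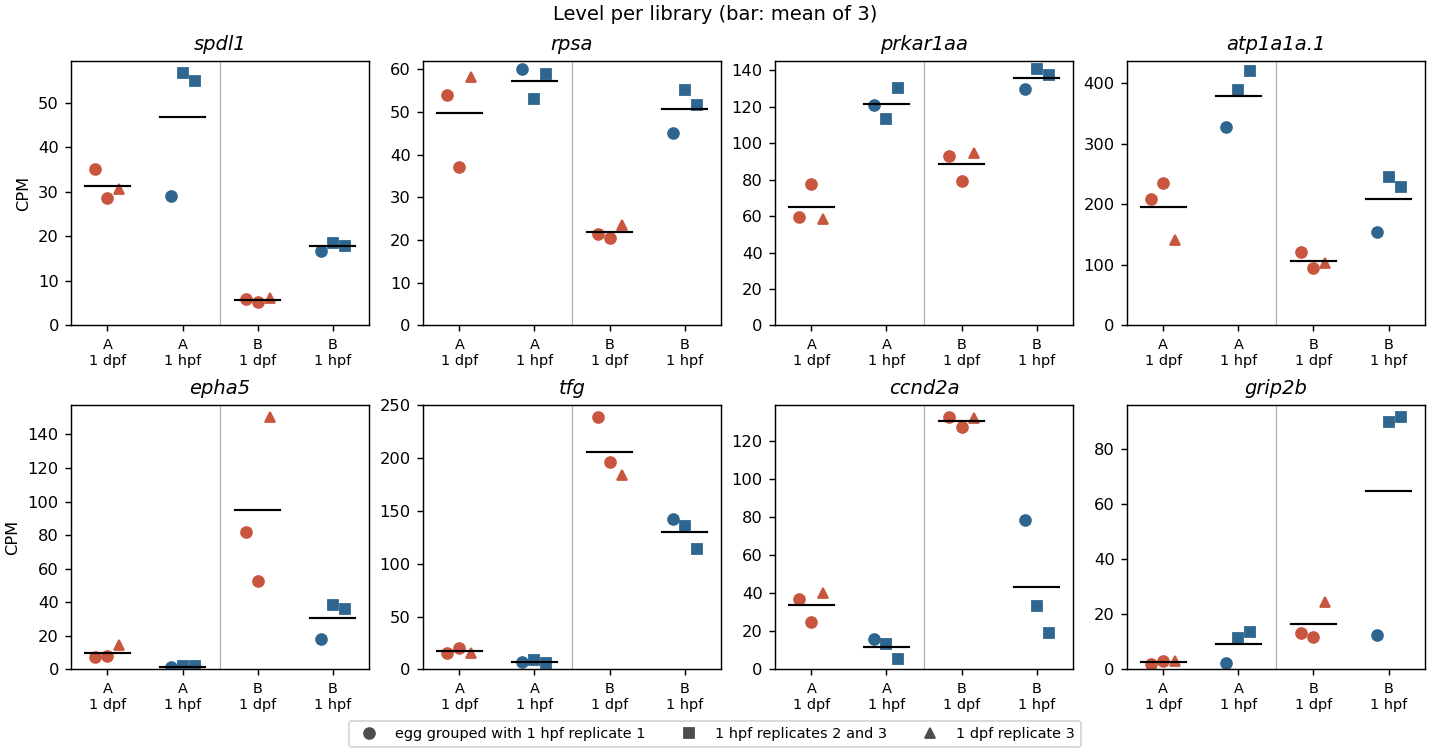
Level in CPM of 8 genes in each library, in section A and section B, at 1 dpf (red) and at 1 hpf (blue), with bars for the mean of 3 libraries and marker shapes for the cluster an egg belongs to; grip2b is the copy LOC110531951. For spdl1 and rpsa in section B and for prkar1aa and tfg in both sections the stages do not overlap, while the grip2b copy separates 1 hpf replicates 2 and 3 from the other 4 eggs.

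atp1a1a.1 (LOC110495657), the catalytic subunit of the sodium-potassium pump, measured 210, 235 and 141 CPM in section A at 1 dpf against 328, 389 and 421 CPM at 1 hpf, and 121, 95.2 and 104 CPM against 155, 246 and 229 CPM in section B. The stages did not overlap, with log2 fold changes of −0.96 ± 0.19 (A) and −0.98 ± 0.19 (B) and edgeR adjusted p = 0.595 and 0.303. Among the 3 eggs that cluster together these were −0.56 and −0.52. DESeq2 called it in both sections (adjusted p = 0.0014 in A and 0.0024 in B). hsd17b4, a peroxisomal enzyme of fatty acid oxidation, measured 62.9, 74.1 and 78.8 CPM in section A at 1 dpf against 103, 113 and 110 CPM at 1 hpf, and 68.1, 71.1 and 61.1 CPM against 94.5, 98.2 and 94.7 CPM in section B. It differed by −0.60 ± 0.13 in A and −0.52 ± 0.13 in B on the log2 scale, and by −0.59 and −0.44 among the 3 eggs that cluster together. DESeq2 called hsd17b4 in both sections (adjusted p = 4.49e-06 in A and 0.000968 in B). tpi1b (LOC110517847), the glycolytic triose phosphate isomerase and a member of the glycolysis list chosen here after its values were seen, measured 91.6, 108 and 75.2 CPM in section A at 1 dpf against 158, 155 and 163 CPM at 1 hpf.

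Of the remaining genes picked by p-value, gtpbp1l (LOC110512091), a GTP-binding protein gene, and pus1 (LOC110509731), which converts uridine to pseudouridine in RNA, had log2 fold changes of −0.96 ± 0.21 and −0.67 ± 0.15 in section A. atp6v0a1b (LOC110486264), a subunit of the proton pump of acid vesicles, siva1 (LOC110505488), a pro-apoptotic adaptor, and kctd9b (LOC110523428) had 0.70 ± 0.16, 0.75 ± 0.17 and 0.96 ± 0.23. For all 5 the edgeR adjusted p was 0.595, and DESeq2 called all 5 in section A (adjusted p = 0.00686 for gtpbp1l, 0.000371 for pus1, 0.00371 for atp6v0a1b, 0.00439 for siva1 and 0.0172 for kctd9b). siva1 measured 106, 113 and 99.3 CPM in section A at 1 dpf against 69.8, 59.1 and 60.6 CPM at 1 hpf, while in section B it measured 85.1, 75.4 and 79.0 CPM against 88.8, 76.6 and 67.3 CPM. With both sections summed, 6.19% of genes lay above and 7.17% below without overlap. The genes of smallest p there were tfg, rhpn2, aplf, raraa (LOC110486146), a retinoic acid receptor, and atp6v0a1b on the higher side and prkar1aa, atp1a1a.1, cldnd (LOC110510219), gtpbp1l and stbd1, a glycogen-binding protein, on the lower side. Of these prkar1aa had an adjusted p = 0.231 and the other 9 had 0.454. cldnd, a claudin of cell junctions, measured 196, 183 and 212 CPM in section B at 1 dpf against 347, 304 and 360 CPM at 1 hpf.

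A test of the difference between sections asked whether a gene's stage change in section A was unlike that in section B. edgeR called 0 genes (0%), with 289 at an unadjusted p under 0.05 (1.27%; 152 positive and 137 negative), and DESeq2 called 0. This fit takes the sections as independent libraries. With each egg as a block, which pairs its sections, edgeR also called 0, with 971 of 22083 genes at an unadjusted p under 0.05 (4.4%; 519 positive and 452 negative). Errors of the differences below come from the fit without the block. With library totals the split was 241 positive and 85 negative. The ratio of A to B lay higher at 1 dpf without overlap for 5.71% of genes and lower for 4.8%. terf1, a protein that binds telomere repeats, had the largest difference among the genes of smallest p. It measured 47.6, 50.6 and 37.2 CPM in section A at 1 dpf against 44.6, 9.51 and 16.3 CPM at 1 hpf, and in section B 47.8, 48.2 and 28.6 CPM against 56.5, 152 and 127 CPM. The difference of 2.37 ± 0.60 (log2, A minus B; edgeR adjusted p = 1) rested on 1 hpf replicates 2 and 3. Replicate 1 at 1 hpf had 44.6 CPM in A and 56.5 CPM in B, like the 1 dpf eggs, and among the 3 eggs that cluster together the stage changes were 0.14 in A and −0.23 in B.

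Other genes with a positive difference were rpsa (1.01 ± 0.25), acat1 of ketone and isoleucine metabolism (0.67 ± 0.21), spdl1 (1.04 ± 0.34) and hip1rb, an actin and clathrin linker (0.51 ± 0.17). acat1 measured 24.8, 31.6 and 28.2 CPM in section B at 1 dpf against 44.1, 43.4 and 48.1 CPM at 1 hpf, with levels of 73.6 to 88.7 CPM and 76.8 to 84.6 CPM in section A. Its stages overlapped in section A alone. Genes with a negative difference were znf831 (−1.28 ± 0.36), alg13 (LOC110510171), an enzyme of N-glycan assembly (−0.74 ± 0.24), atg2a (LOC110504653) of autophagy (−0.78 ± 0.27), prep (−0.69 ± 0.24) and vrtn (LOC110522612; −0.57 ± 0.20). All of these had an edgeR adjusted p = 1.

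Cell cycle RNAs of cleavage were measured next, since they are the supply on which the divisions run. ccna1, the embryonic A-type cyclin, measured 210, 312 and 228 CPM in section A at 1 dpf against 338, 353 and 320 CPM at 1 hpf, and 429, 468 and 411 CPM against 467, 488 and 467 CPM in section B. Its log2 fold change was −0.43 ± 0.15 in A (edgeR adjusted p = 0.615) and −0.12 ± 0.15 in B (0.884). The 3 copies of ccnb1, the mitotic cyclin, had log2 fold changes of −0.37 ± 0.27 (LOC100136690), −0.91 ± 0.26 (LOC110506456) and −0.53 ± 0.25 (LOC110523559) in section A. In section B they had −0.17, −0.48 and −0.20. ccnb2 (LOC110506532) had −0.15 ± 0.14 in A and 0.28 ± 0.14 in B. mos, the kinase that holds the unfertilized egg in meiosis, measured 104, 105 and 66.8 CPM in section A at 1 dpf and 105, 102 and 111 CPM at 1 hpf, and 125, 130 and 104 CPM against 141, 118 and 132 CPM in section B. The stages overlapped for mos in both sections. Symbols of genes with a LOC identifier come from their zebrafish counterparts. Reads of near-identical duplicate copies may have been split between them in ways that are not stated, so values of single copies are uncertain.

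Maternal regulators of later development did not pass the test either. pou5f3, a factor that opens the genome at its activation, measured 297, 343 and 305 CPM in section A at 1 dpf against 423, 441 and 479 CPM at 1 hpf (log2 fold change −0.51 ± 0.14, edgeR adjusted p = 0.595; DESeq2 adjusted p = 0.0295). In section B it measured 299, 309 and 321 CPM against 312, 333 and 355 CPM (−0.10 ± 0.14). Its second copy (LOC110523509) measured 146, 184 and 90.4 CPM against 199, 92.0 and 57.7 CPM in section A, where 1 hpf replicate 1 and 1 dpf replicates 1 and 2 were all high. nanog, the other genome activator fixed here, had log2 fold changes of −0.32 ± 0.24 in A and −0.05 ± 0.24 in B. zar1 (LOC100136720), an egg RNA-binding protein, had −0.05 ± 0.20 and −0.23 ± 0.20. ddx4, the germ cell helicase, had 0.19 ± 0.21 and 0.24 ± 0.21.

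In other genes single eggs or clusters of eggs stood apart. The grip2b copy LOC110531951 measured 13.3, 11.9 and 24.4 CPM in section B at 1 dpf against 12.6, 89.8 and 91.4 CPM at 1 hpf. Its log2 fold change of −1.96 ± 0.60 was −0.01 among the 3 eggs that cluster together. actl6a (LOC110532571), an actin-related subunit of chromatin remodelers, measured 20.7, 17.7 and 11.96 CPM in section B at 1 dpf against 61.9, 9.30 and 11.4 CPM at 1 hpf. The 1 hpf egg that stood high was replicate 1. Over all eggs its log2 fold change was −0.71 ± 0.70, and among the 3 eggs that cluster together it was −1.70. In that comparison, of 2 eggs at 1 dpf with 1 at 1 hpf, whose spread is taken from the other groups, 0 genes passed in section A, 6 in section B (0.0264%) and 8 over both sections (0.0352%). Those with a symbol were epha5, actl6a, spdl1 and tmtops3b in section B, and epha5, actl6a, sfpq (LOC110489271), prkar1aa and cldnd over both sections. tmtops3b (LOC110510136) was at 0 in section B of 1 dpf replicates 1 and 2, and measured 44.4 CPM in replicate 3, against 2.82, 1.97 and 1.22 CPM at 1 hpf.

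The genes were then read in 25 lists by function, none of which had a member that passed the test in either section. Splicing factors, the proteins that assemble on introns, stood lowest among lists of over 20 genes in section A. Of 116 members tested, 28 had a positive and 88 a negative log2 fold change in section A (all genes 11753 and 10892). The list's median there was −0.17 against 0.015 over all genes. In 27 members the 3 libraries at 1 dpf lay below all 3 at 1 hpf and in 6 above, where 8.04% and 7.71% of all tested genes did so. The median was −0.20 among the 3 eggs that cluster together, with 88 of 116 negative there too, against 47% of all genes. The median deviation of the list from each gene's mean over all libraries was −0.24, −0.12 and −0.24 in section A at 1 dpf against 0.01, −0.04 and −0.02 at 1 hpf, so the stages did not overlap. In section B these deviations were −0.11, −0.21 and −0.14 at 1 dpf against 0.02, −0.04 and −0.02 at 1 hpf, again without overlap. The mean they are taken from includes section A at 3 dpf, where the deviations were 0.875 and 0.556. The summed level of the list did overlap in section B, at 7098 to 7599 CPM at 1 dpf and 7171 to 7517 CPM at 1 hpf. In section A it was 6285 to 6658 CPM against 6993 to 7445 CPM, without overlap. The fitted median fold change in section B was −0.01, with 53 members positive and 63 negative (all genes 11577 and 11033). There 4 members lay above and 12 below without overlap, where 5.03% and 6.14% of all genes did so.

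Several splicing genes had non-overlapping stages in section A. sf3b3, a subunit of the SF3b complex that recognizes the branch point, measured 87.7, 104 and 95.2 CPM in section A at 1 dpf against 131, 174 and 177 CPM at 1 hpf (log2 fold change −0.75 ± 0.24). prpf31 (LOC110536762), a protein of the U4/U6 particle, measured 52.6, 60.04 and 49.7 CPM against 81.0, 74.1 and 78.4 CPM. sfpq, a splicing and paraspeckle protein, measured 99.6, 117 and 81.6 CPM against 186, 142 and 145 CPM in section A, and 116, 95.7 and 92.0 CPM against 161, 143 and 153 CPM in section B. Each had an edgeR adjusted p = 0.595 in section A. These 3 were chosen after their values were seen. ddx5, a helicase with several copies in the table, had −0.47 ± 0.17 for the copy LOC110486548 in section A and 0.14 ± 0.17 in section B. Its copy listed as ddx5 had −0.21 ± 0.19 (A) and 0.21 ± 0.19 (B), with overlapping stages for both. snrpb, a core protein of the spliceosome particles, had −0.12 ± 0.15 and −0.01 ± 0.15.

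The glycolysis list (34 genes) had a median of −0.13 in A and −0.03 in B. Among the 3 eggs that cluster together it had −0.16 and −0.01. There 26 of 34 members were negative in A, against 47% of all genes. In section A, 2 members lay above and 8 below without overlap, where 7.71% and 8.04% of all genes did so. Of 62 oxidative phosphorylation genes, 3 lay above and 11 below in A. Cytosolic ribosomal proteins (140 genes) had −0.04 and −0.10 over all eggs and −0.12 and −0.16 among the 3 eggs that cluster together. In section B, 4 of them lay above and 11 below without overlap (all genes 5.03% and 6.14%). Motors and cytoskeleton genes (105) had −0.08 in A, with 4 members above and 20 below (all genes 7.71% and 8.04%), and −0.01 in B. rplp0 (LOC110494133), of the ribosomal stalk, measured 66.0, 83.2 and 53.9 CPM in section A at 1 dpf against 83.3, 97.3 and 109 CPM at 1 hpf, without overlap, though its lowest 1 hpf library and highest 1 dpf library were nearly equal.

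The lists tied to cleavage were read against the same shares. Cell cycle and mitosis (110 genes) had −0.05 in A and −0.02 in B, with 13 members above and 17 below without overlap in A (all genes 7.71% and 8.04%). Replication licensing and fork (44) had −0.03 in A and −0.15 in B, the lowest median of a list of at least 20 genes in section B. orc1, of the complex that marks replication origins, measured 309, 300.3 and 290 CPM in section A at 1 dpf against 362, 348 and 426 CPM at 1 hpf, without overlap. mcm7, of the replicative helicase, had 0.02 ± 0.18 in A and −0.37 ± 0.18 in B. Histones and histone supply (27) had 0.01 and 0. mRNA decay and deadenylation (95) had −0.001 and 0.08, with 3 members above and 16 below without overlap in A (all genes 7.71% and 8.04%). btg4, which recruits the deadenylase to maternal mRNA, had 0.28 ± 0.24 in A and 0.21 ± 0.24 in B. Translational control and polyadenylation (68) had −0.01 and 0.04, chromatin and DNA methylation (148) 0.02 and −0.01, and RNA polymerase II machinery (74) −0.02 and −0.07.

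Lists of later development were read in the same way. Genome activators and early zygotic genes (66) had medians of 0.07 in A and 0 in B, and Nodal and BMP signaling (32) had −0.05 and 0.03. Wnt and beta-catenin signaling (62) had 0.06 and 0.05. In A 40 of its members were positive and 22 negative (all genes 11753 and 10892). In B 39 were positive and 21 negative (all genes 11577 and 11033). Its axin1 copy LOC110512102, a scaffold that marks beta-catenin for destruction, measured 23.9, 20.5 and 16.95 CPM in section A at 1 dpf against 11.2, 12.6 and 11.9 CPM at 1 hpf. In section B it measured 282, 188 and 209 CPM against 165, 145 and 105 CPM. The log2 fold changes were 0.78 ± 0.24 and 0.71 ± 0.22 (edgeR adjusted p = 0.595 and 0.46), and no library of one stage overlapped the other. This copy was chosen after its values were seen, and the copy LOC110538248 had 0.06 in A and −0.29 in B. Germ plasm and germ cells (36) had 0.03 and 0.001, egg-specific maternal RNAs (39) 0 and 0, and heat shock and stress (68), ubiquitin and proteasome (130), apoptosis and p53 (44) and nuclear-encoded oxidative phosphorylation (62) had medians of −0.03 to 0 in A and −0.08 to −0.001 in B. Wider marker lists of ovarian follicle (7 genes), sperm and testis (8), blood (6) and liver and yolk (13) had medians of −0.34, −0.20, −0.35 and 0 in A, and −0.23, −0.03, −0.10 and 0 in B. The follicle list summed to 295 to 340 CPM at 1 dpf and 367 to 416 CPM at 1 hpf in A, and to 291 to 360 CPM and 373 to 403 CPM in B, without overlap. Much of this sum was epcam (LOC110502334), its most abundant member. With both sections summed epcam measured 184, 235 and 155 CPM at 1 dpf against 262, 245 and 229 CPM at 1 hpf, with overlap. The median deviation of the list in section B also overlapped, at −0.39, −1.10 and −0.18 at 1 dpf against −0.30, −0.39 and −0.39 at 1 hpf. The part of follicle cells in the results was not tested.

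**Figure D4:**
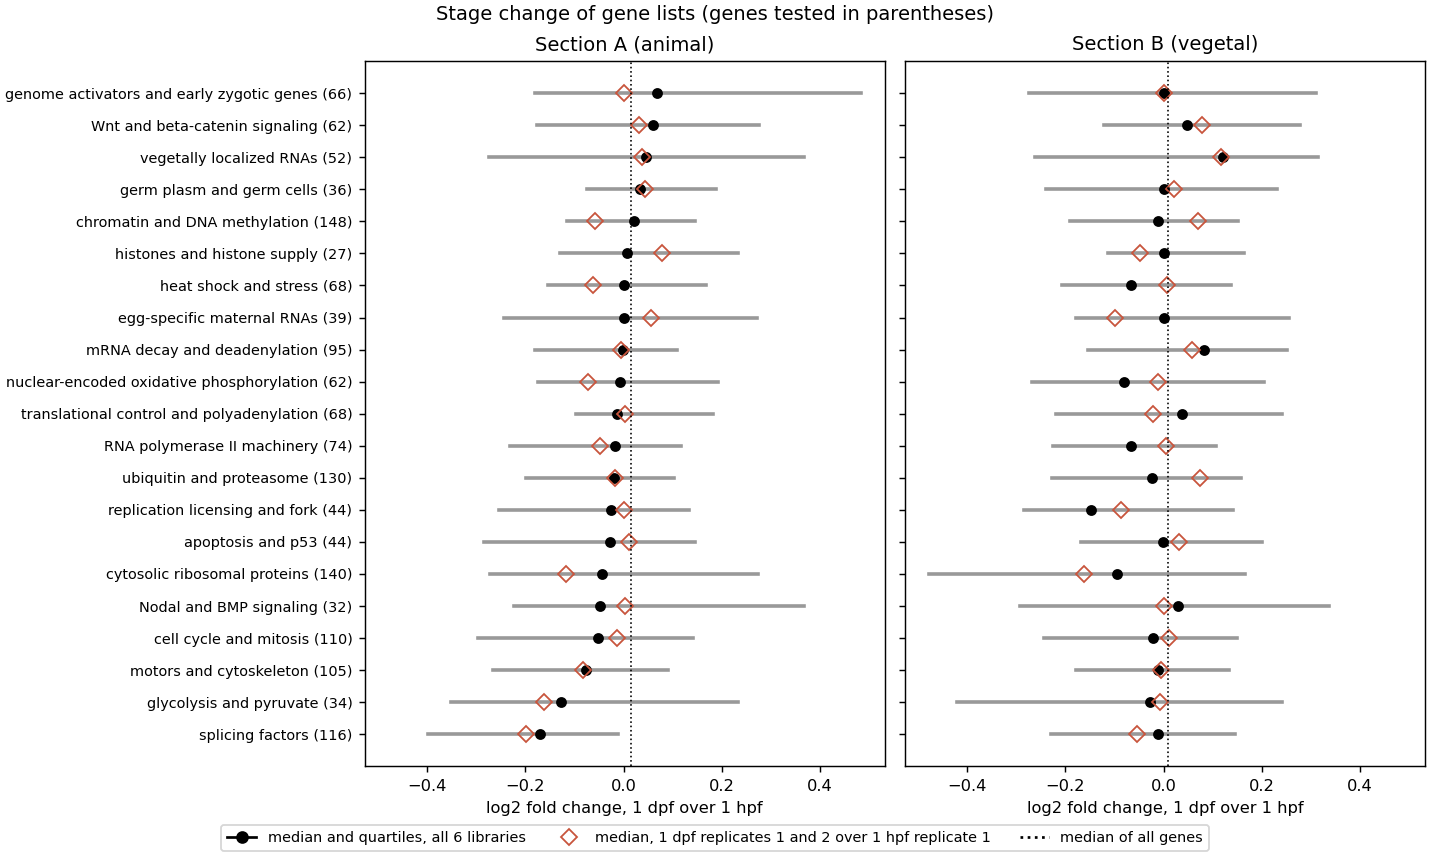
Median log2 fold change (1 dpf over 1 hpf) of each gene list of at least 20 genes in section A (left) and section B (right), over all 6 libraries with the quartiles of its genes (black and grey), and among 1 dpf replicates 1 and 2 and 1 hpf replicate 1 (red diamonds). In section A the splicing factors have the lowest median, −0.17, and in section B the medians lie between −0.15 and 0.12.

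Vegetal RNAs were looked at in both sections. A shift of RNA along the axis would move A and B in opposite directions. For RNAs far higher in B, however, a gain in A could leave little trace in B, and CPM gives only shares. These values therefore cannot show whether RNA moved, which was not tested. The list of vegetally localized RNAs (52 genes) had medians of 0.05 in A and 0.12 in B. A pair of them, chosen after their values were seen, did not overlap between the stages in section A. trim36 (LOC110525254), a ubiquitin ligase of the vegetal cortex, measured 107, 199 and 82.4 CPM in section A at 1 dpf against 75.7, 65.0 and 38.6 CPM at 1 hpf, and 2368, 1571 and 1804 CPM against 1716, 1455 and 1220 CPM in section B. sybu (LOC110518767), a kinesin linker, measured 116, 111 and 115 CPM against 69.1, 65.7 and 61.0 CPM in A, and 1313, 1093 and 1077 CPM against 1038, 833 and 725 CPM in B. Their log2 fold changes in A were 1.11 ± 0.36 and 0.80 ± 0.29 (edgeR adjusted p = 0.595 and 0.624). The trim36 copy LOC110535019 had 0.359 in A and 0.132 in B, and the sybu copy LOC110489853 had 0.997 and 0.584.

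1 library stood out among these RNAs. In section A of 1 dpf replicate 2, grip2b (LOC110492486), a scaffold of the vegetal cortex, measured 99.3 CPM, beside 36.9 and 32.2 CPM in 1 dpf replicates 1 and 3, against 29.6, 29.1 and 19.8 CPM at 1 hpf. Its log2 fold change in A was 1.1 ± 0.40 with that library and 0.40 without it. The ratio of section A to section B showed the same library. For hwa, the maternal RNA of the dorsal organizer, the log2 ratio was −4.33, −2.68 and −4.89 in the 1 dpf eggs against −4.78, −4.20 and −4.12 in the 1 hpf eggs, and for kpna3 (LOC110501294), a nuclear import receptor, −4.63, −3.25 and −4.36 against −4.53, −4.17 and −5.04. dazl, a germ plasm RNA, had −2.74, −2.86 and −2.75 at 1 dpf against −3.30, −3.18 and −3.24 at 1 hpf. For dazl all 3 eggs at 1 dpf lay above all 3 at 1 hpf, a difference of 0.48 ± 0.39 (edgeR adjusted p = 1, in the fit that does not pair the sections of an egg). The second dazl copy, LOC110487980, had a negative difference of −0.37 ± 0.50. Its ratios were −2.17, −1.98 and −2.34 at 1 dpf against −2.04, −1.30 and −1.80 at 1 hpf, with overlap. The tankyrase copy tnksa LOC110525835 had lower ratios at 1 dpf, with −0.73, −0.68 and −0.64 at 1 dpf against −0.19, −0.01 and 0.27 at 1 hpf (−0.69 ± 0.26, adjusted p = 1). Other tnksa copies had differences of 0.044 ± 0.285 (LOC110523807), 0.152 ± 0.288 (tnksa) and −0.153 ± 0.645 (LOC110536219). Where the cut between the sections fell in each egg is not given in the sources used here, and its part in these ratios was not tested.

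**Figure D5:**
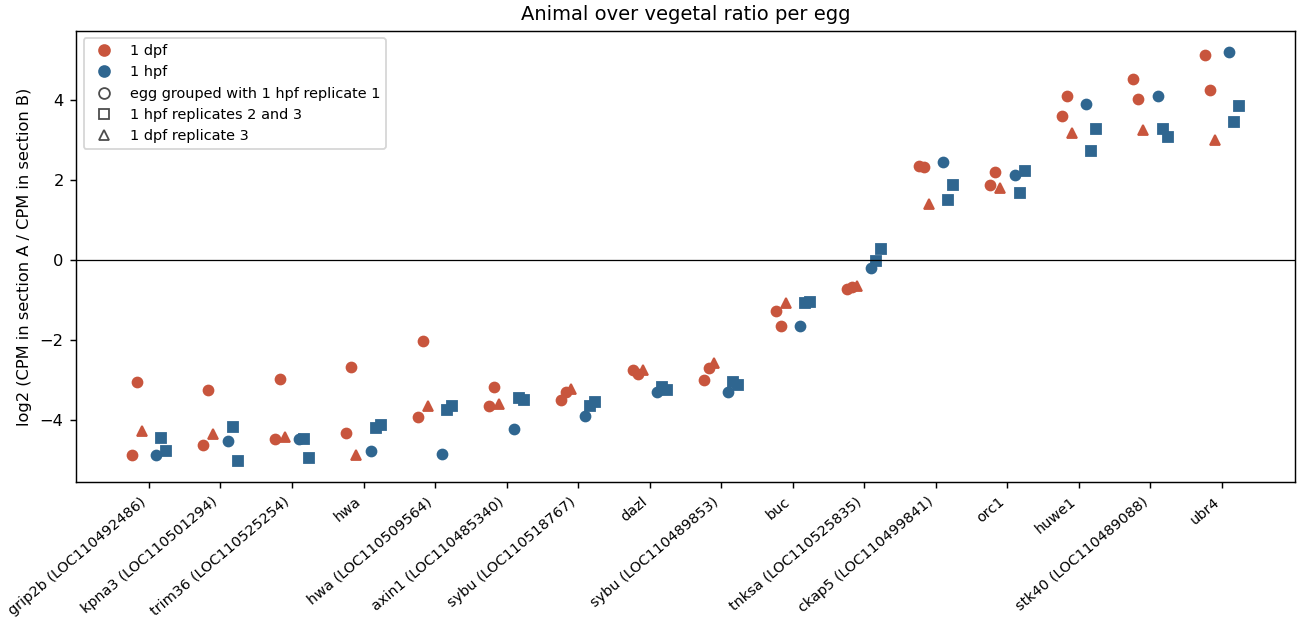
Log2 ratio of CPM in section A to CPM in section B in each egg for 16 genes, at 1 dpf (red, left of each pair) and at 1 hpf (blue, right), with marker shapes for the cluster an egg belongs to. Apart from the tnksa copy, the vegetal genes keep ratios below −1 at both stages, and the highest point at 1 dpf for grip2b, kpna3, trim36 and both hwa copies is replicate 2.

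To describe localized RNAs without picking them on these stages, genes were chosen by their A to B ratio in the 0 hpf libraries. Among genes at or above the median level, the 500 O. mykiss genes with the lowest ratio and the 500 with the highest were followed. The 0 hpf eggs clustered with 1 dpf replicate 3 and with no 1 hpf egg. The effect of this on the choice was not tested. The vegetal 500 had a median log2 ratio of −2.30 at 1 dpf and −2.34 at 1 hpf, and the animal 500 had 1.86 and 1.81. The median stage change of the vegetal 500 was 0.36 in section A and 0.30 in section B, against 0 and 0.01 over all genes at or above the median level. In section A the median deviation of the vegetal 500 was 0.21, 0.24 and 0.09 at 1 dpf against −0.13, −0.04 and −0.31 at 1 hpf, without overlap. In section B it was 0.31, 0.15 and −0.04 against 0.17, −0.25 and −0.35, with 1 hpf replicate 1 among the 1 dpf eggs. Among the 3 eggs that cluster together the medians were 0.37 in A and 0.07 in B. The animal 500 had medians of −0.06 in A and −0.13 in B over all eggs, and −0.09 and 0.04 among the 3 eggs that cluster together, so that the direction in B turned. The difference A minus B of the animal 500 was negative in 207 of 500 over all eggs and in 322 among those 3 eggs. For the vegetal 500 it was positive in 290 over all eggs and in 437 among those 3 eggs, with medians of 0.05 and 0.31. Of the 11362 genes at or above the median level, it was positive in 5638 and negative in 5724 over all eggs. Among those 3 eggs it was positive in 5995 and negative in 5367 of these genes. Those 3 eggs include 1 dpf replicate 2, whose section A library stood out above.

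Few RNAs were seen at one stage alone. In section A 4 of 22773 genes had 0 counts in all 3 libraries at 1 hpf and at least 1 in each at 1 dpf, and 12 genes had the reverse. In section B these were 3 and 13. With at least 5 counts in each library of one stage and 0 in all of the other, 0 genes were seen at 1 dpf alone in either section. 1 gene per section was seen at 1 hpf alone, fshr (LOC110503041) in A and adora2aa, an adenosine receptor gene, in B. Low counts limit this reading, since every gene in the table reaches at least 31 counts in some library of the series, and 96 genes in section A and 131 in section B had 0 counts in all 6 libraries. Each 1 dpf library also held fewer counts in total than any 1 hpf library of its section. The part of this depth difference was not tested.

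Protein-coding genes of O. mykiss held 98.07% to 98.45% of the counts. Annotated ribosomal RNA genes, which the depletion was meant to remove, held 0.150%, 0.0954% and 0.0573% of the counts in section A at 1 dpf against 0.0996%, 0.0397% and 0.0503% at 1 hpf. In section B they held 0.128%, 0.0855% and 0.0523% against 0.108%, 0.0503% and 0.0382%. These shares were higher in the 3 eggs that cluster together than in the other 3, at both stages. Their part in the results above was not tested. Small nucleolar RNAs (29 genes tested) held 0.0160%, 0.0172% and 0.0141% in section A at 1 dpf against 0.0159%, 0.0110% and 0.0122% at 1 hpf, and at most 0.00131% of any section B library. Long non-coding RNAs (424 tested) had median log2 fold changes of 0.10 in A and 0.04 in B.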

How the data were processed

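RNA of the 2 sections was measured by RNA-seq, with total RNA, ribosomal RNA depletion and a directional kit per the labels' protocols. The deposited table holds raw counts per gene for 20 libraries of the 24 in the labels; 4 were not analysed here. The submitters' processing notes list DESeq2, HTSeq 2.0.4, STAR 2.7.11 and fastp 0.23.4. Genome builds, the strand setting and the treatment of reads shared between duplicated genes are not given in the sources used here, so values of overlapping genes and near-identical copies are uncertain. Depth was 5605030 to 9628963 counts in the 12 libraries compared.

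Counts were fitted with edgeR 4.0.16 in R 4.3.3 (quasi-likelihood, TMM factors, filterByExpr) over all 20 libraries, with a mean per stage and section. Contrasts were 1 dpf minus 1 hpf in each section, their difference, and 1 dpf minus 1 hpf with the sections of an egg summed. P-values were adjusted by Benjamini-Hochberg over all genes of both species (threshold 0.05). Sections of the same replicate number were taken as 1 egg. They deviated together (r = 0.373 to 0.703). Sections of different numbers were not set beside them, so these values do not establish the pairing. Alternatives were library totals, RLE factors, other filters, DESeq2 1.42.0, a robust prior, other sets of libraries, replicate blocks and leaving out each library; a block for clusters of eggs and a comparison within a cluster were added after seeing the data. Scripts were tested on simulated data.

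Genes were matched to symbols by the count table's own names (6423 genes) or through the zebrafish genes of the deposited ortholog table (7216). Every gene in the count table has at least 31 counts in some library. For each contrast the 5 genes with a symbol and the smallest p per direction, at or above the median level, were named, since none passed. Overlap between the stages was not a condition of this choice. A fixed set of maternal genes and examples from each list were named besides. Members and gene lists were chosen with earlier results of these data known.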

Additional observations from a re-analysis of the deposited data

How the results depend on the processing

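Over all libraries edgeR called 0 genes in every comparison, and most alternatives (RLE factors, no filter, O. mykiss genes alone, own section or 1 hpf and 1 dpf libraries alone) also gave 0. In section A, DESeq2 called 96 genes and the replicate block by number 13. In section B, library totals gave 1, the filter of 10 counts in 3 libraries 2, DESeq2 71, a robust prior 2, the replicate block by number 4, the block for clusters of eggs 4 and the comparison within a cluster 6. Over both sections these were 171 with DESeq2, 0 with the replicate block, 2 with the block for clusters and 8 within a cluster. The difference between sections gave 0 in every setting, blocks by number and by egg included. Over the gene lists library totals gave 1 called member, rpsa in section B. The filter of 10 counts in 3 libraries, the robust prior and DESeq2 also called rpsa there. DESeq2 called further list members, pou5f3 and tpi1b in section A among them. Leaving out 1 library gave 0 to 19 calls in section A, 0 to 164 in section B and 0 to 896 over both sections, each highest value without 1 hpf replicate 1. Replicate numbers of the 2 stages do not pair the samples (correlation of deviations −0.278 to 0.353), so the block by number rests on a shared number alone. tmtops3b reversed in section B, with a log2 fold change of 2.90 over all eggs and −7.49 within a cluster. The causes were not tested. No stage change could be read for the 96 and 131 genes with 0 counts in all 6 libraries of section A and B. The part of depth in this was not tested. Intervals within 2-fold were reached by 53.8% and 53.2% of all genes tested in A and B.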
